A study of Mus musculus with 12 samples.

Results

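The enzymes that place and remove acetyl groups on lysines, and the corepressors and bromodomain proteins that work with them, were followed at the transcript level in mouse aorta after CM-695, an inhibitor that acts on the deacetylase HDAC6 and on phosphodiesterase 9. The set was given as 37 gene symbols, and the rule for its members used no measured value, although earlier results of these data were known when it was drawn up. A gene counted as measured when a probe set of the array named it and no other gene, and where several did, the brightest on average across the 12 arrays was taken. By this rule 36 of the 37 genes were measured, of 22180 genes in all. Ncor1, a nuclear receptor corepressor, had no probe set named for it alone and was not analysed here.

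The tested mice were 6 female CD-1 animals, an outbred stock, injected intraperitoneally with CM-695 at 80 mg/kg, 2 h and 1 h before sacrifice. The other group was 6 female CD-1 mice given saline, which the design text describes as a single injection, so drug and number of injections cannot be told apart. The labels give no ages. Each mouse gave 1 array of RNA from its perfused and snap-frozen aortic vessel, measured as log2 expression values.

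Histone deacetylases are grouped by sequence and cofactor. Class I enzymes (HDAC1, HDAC2, HDAC3 and HDAC8) are mostly nuclear, and all but HDAC8 act inside corepressor complexes built on SIN3, CoREST or NCoR. Class IIa enzymes (HDAC4, HDAC5, HDAC7 and HDAC9) have little catalytic activity of their own, bind MEF2 transcription factors and leave the nucleus when phosphorylated. Class IIb holds HDAC6, a cytoplasmic enzyme that deacetylates alpha-tubulin and HSP90, and HDAC10, a polyamine deacetylase. HDAC11 alone forms class IV. Sirtuins are deacylases that consume NAD. Acetyltransferases are the writers of the mark, and BRD2 and BRD3 read it through their bromodomains.

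No transcript of this set differed between CM-695 and vehicle aortas beyond the threshold. With limma's moderated test and Benjamini-Hochberg adjustment over all 41345 probe sets, 0 of 36 members had an adjusted p under 0.05, and the smallest was 0.523. Over the same probe sets 64 passed, or 0.155%. At an unadjusted p under 0.05 there was 1 member of 36, Atat1, or 2.78%, against 9.1% of all genes. In 0 of 36 members did the CM-695 and vehicle mice fail to overlap, against 1.08% of all genes. The 36 differences had a median of -0.01 log2, with 17 above 0 and 19 below, beside a median of 0.02 over all genes. They ran from -0.17 to 0.30 on the log2 scale.

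The 95% confidence interval lay wholly inside a 1.5-fold change in either direction for 35 of 36 members, or 97.2%, and for 84.1% of all genes. The exception was Sirt5, whose interval reached 1.53-fold. With the cardiac marker mean per mouse as a covariate, 29 of 36 intervals lay within that bound. Those of Hdac9, Hdac11, Sirt3, Sirt5, Kat8, Atat1 and Ncoa3 did not. In that fit 3 members had an unadjusted limma p under 0.05 and 0 passed after adjustment. They were Hdac11 (1.01-fold to 1.69-fold), Sirt5 (1.12-fold to 1.89-fold) and Sirt6 (1.008-fold to 1.497-fold). The interval of Atat1 ran from 0.948-fold to 1.61-fold. The shares of all genes within the bound and at that p in that fit are not given. Standard errors without a covariate ran from 0.083 to 0.187 on the log2 scale. All 36 members had a mean above the median of every array, and their spread between mice of a group was mostly small. The pooled within-group SD had a median of 0.17 over the members and 0.21 over all genes, and 9 of 36 members lay above the latter figure. It was smallest for Kat6a (0.10) and largest for Hdac9 (0.35).

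**Figure D1:**
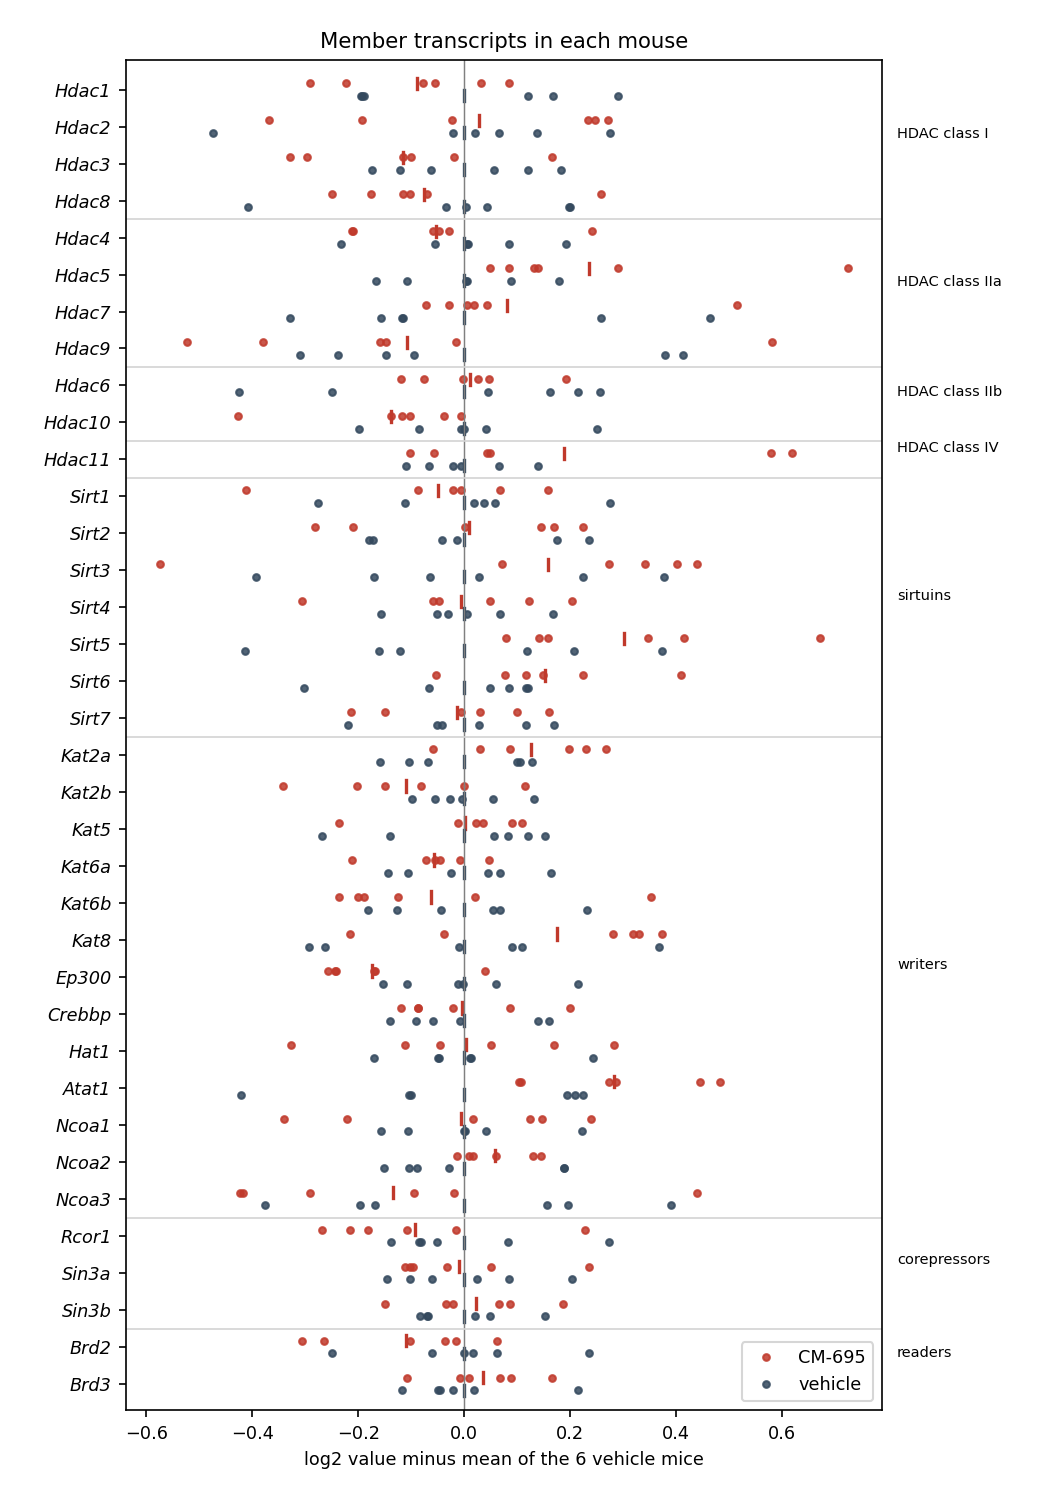
Values of the 36 measured members in each mouse, as log2 value minus the mean of the 6 vehicle mice (x axis), with CM-695 mice in red above vehicle mice in dark blue and a vertical tick at each group mean. Red and blue points overlap in every gene, and the red point farthest to the right is Hdac5 in CM-695 mouse 2.

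Array medians lay between 4.69 and 4.74. All 10 smooth muscle and all 10 endothelial markers exceeded the array medians, as did all 11 cardiac and all 8 adipocyte markers, so transcripts typical of heart muscle and fat were measured in these vessel samples. The cardiac marker mean per mouse lay between 5.98 and 8.15 after CM-695 and between 7.08 and 9.05 after vehicle, and all 11 cardiac markers had a negative difference (9 at an unadjusted limma p under 0.05, 0 after adjustment). Their part in the results was not tested beyond the covariate values given beside them. The smooth muscle marker mean ran from 8.46 to 10.40 after CM-695 and from 8.94 to 9.83 after vehicle, with 9 of 10 markers below 0 in their difference (median -0.25, 0 at an unadjusted p under 0.05). All 10 fibroblast markers were also below 0 (median -0.38, 4 at an unadjusted p under 0.05, 0 after adjustment). Other lists leaned upward, with 7 of 7 liver, 6 of 7 platelet and 4 of 5 neuronal or Schwann markers above 0. Of these, 1, 3 and 0 had an unadjusted limma p under 0.05, and 0 passed after adjustment. The liver marker mean reached 6.95 in a CM-695 mouse, against at most 4.93 after vehicle. In bulk tissue, fewer cells of a type and less RNA per cell cannot be told apart.

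Among the class I enzymes, Hdac3, the catalytic subunit of NCoR complexes, had the smallest p. It measured 7.87, 8.09 and 8.36 (lowest, median and highest mouse) after CM-695 and 8.02, 8.19 and 8.38 after vehicle. The groups overlapped, with 2 of 6 CM-695 mice below every vehicle mouse, and the difference was -0.12 (SE 0.10, limma adjusted p = 0.779). Hdac1, which shares SIN3, NuRD and CoREST complexes with HDAC2, differed by -0.09 (SE 0.11), Hdac2 by 0.03 (SE 0.15) and Hdac8 by -0.08 (SE 0.12). The class median was -0.08 log2.

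Class IIa held the member with the largest spread between mice, Hdac9, and the class median difference was 0.01 log2. Hdac5, a repressor of MEF2 targets, measured 7.39, 7.47 and 8.06 after CM-695 and 7.17, 7.34 and 7.52 after vehicle. CM-695 mice 2 and 6 lay above every vehicle mouse and the other 4 within the vehicle range. The difference was 0.24 (SE 0.12, 95% confidence interval -0.02 to 0.49, limma adjusted p = 0.581), and 0.14 without CM-695 mouse 2. Hdac7, known from endothelial cells, where it keeps vessels intact during development, measured 6.27, 6.35 and 6.85 after CM-695 and 6.01, 6.22 and 6.80 after vehicle, a difference of 0.08 (SE 0.15). Hdac4 differed by -0.05 (SE 0.10). Hdac9, a gene linked in human studies to large-artery disease, differed by -0.11 (SE 0.19).

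Hdac6, the deacetylase that CM-695 inhibits, lies in class IIb. It measured 6.01, 6.14 and 6.32 after CM-695 and 5.70, 6.23 and 6.38 after vehicle, so every treated mouse lay inside the vehicle range. The difference was 0.01 (SE 0.12), with an interval from 0.838-fold to 1.21-fold, and 0.21 (SE 0.15) with the cardiac covariate. Hdac10 measured 5.67, 5.99 and 6.09 after CM-695 and 5.90, 6.09 and 6.35 after vehicle, a difference of -0.14 (SE 0.099, adjusted p = 0.715). CM-695 mouse 4 alone lay below the vehicle range.

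The single class IV gene, Hdac11, measured 5.53, 5.67 and 6.25 after CM-695 and 5.52, 5.61 and 5.77 after vehicle. CM-695 mice 2 and 3 stood above every vehicle mouse, at 6.21 and 6.25, and the other 4 lay between 5.53 and 5.68. The difference was 0.19 (SE 0.14, limma adjusted p = 0.717), and 0.39 (SE 0.17, adjusted p = 0.672) with the cardiac covariate. It was 0.11 without CM-695 mouse 2 and 0.10 without CM-695 mouse 3. Another probe set for Hdac11, with a lower mean, differed by 0.02 (SE 0.097).

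**Figure D2:**
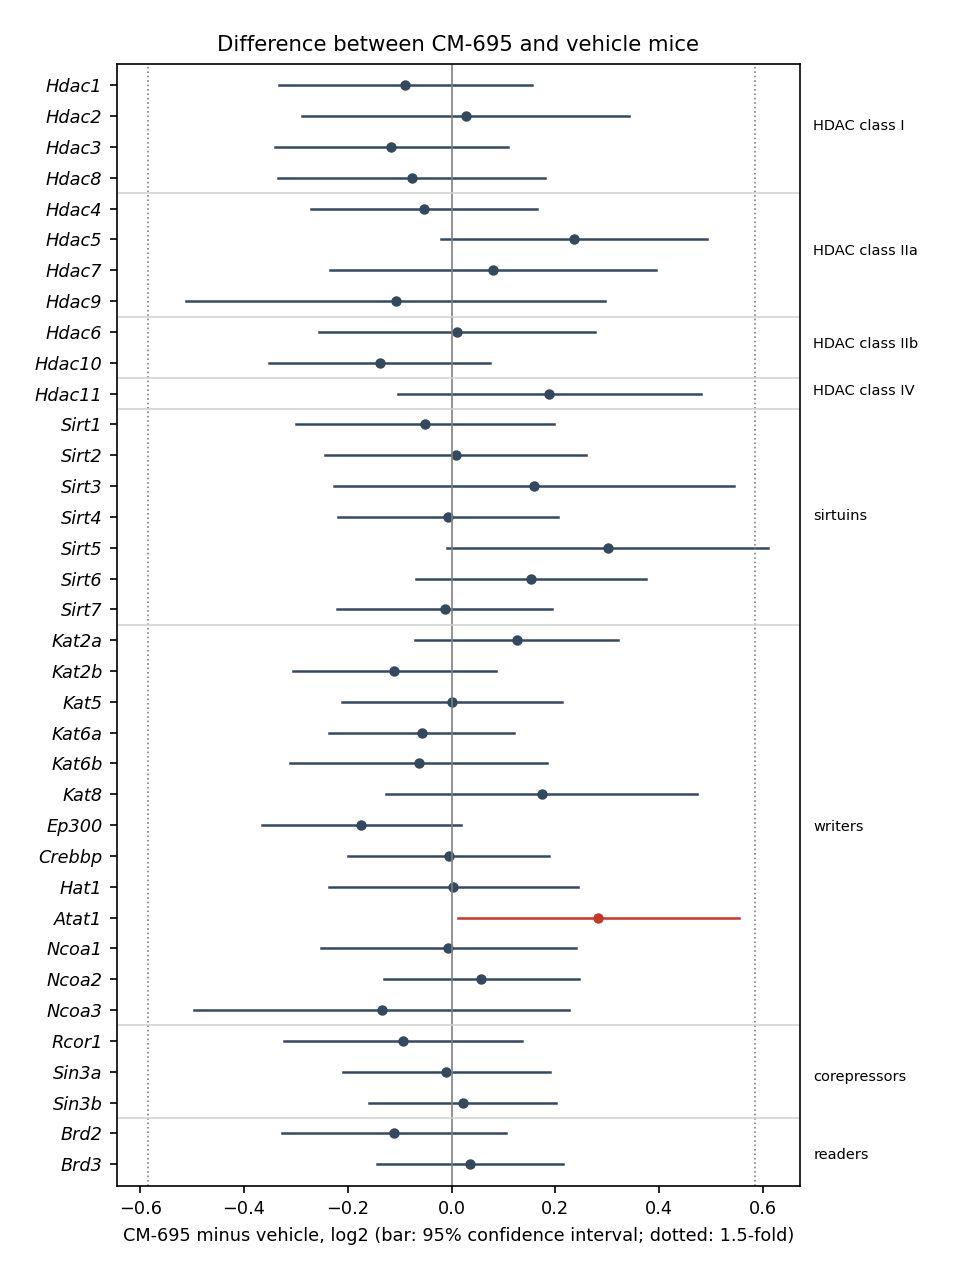
Difference between CM-695 and vehicle mice on the log2 scale (x axis) for the 36 measured members, by class, with points for the estimate, bars for limma's 95% confidence interval and dotted lines at a 1.5-fold change. The red bar, Atat1, is the only interval that does not include 0, and the bar of Sirt5 alone crosses a dotted line.

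Of the 7 sirtuins, Sirt5, a mitochondrial enzyme that removes succinyl, malonyl and glutaryl groups, had the largest difference. It measured 6.16, 6.34 and 6.76 after CM-695 and 5.67, 6.08 and 6.46 after vehicle. Only CM-695 mice 3 and 5 exceeded every vehicle mouse. The difference was 0.30 (SE 0.14, 95% confidence interval -0.01 to 0.61, limma adjusted p = 0.557), and 0.54 (SE 0.175, adjusted p = 0.559) with the cardiac marker mean as a covariate. Sirt6, a chromatin deacetylase, differed by 0.15 (SE 0.10), with 3 of 6 treated mice above the vehicle range, by 0.30 (SE 0.13) with the cardiac covariate, by 0.10 without CM-695 mouse 2 and by 0.093 without vehicle mouse 3. Sirt3, the main mitochondrial deacetylase, differed by 0.16 (SE 0.18), and from 0.080 without vehicle mouse 3 to 0.31 without CM-695 mouse 2 when 1 mouse was left out. Sirt1, the nuclear enzyme that deacetylates clock proteins among many others, differed by -0.05 (SE 0.12), the mainly cytoplasmic tubulin deacetylase gene Sirt2 by 0.01 (SE 0.12), Sirt4 by -0.01 (SE 0.099) and the nucleolar enzyme gene Sirt7 by -0.01 (SE 0.096). The median of the 7 was 0.01 log2.

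Among the 13 writers the smallest p of the whole set belonged to Atat1, which encodes the acetyltransferase for the lysine of alpha-tubulin that HDAC6 deacetylates. Atat1 measured 6.54, 6.71 and 6.92 after CM-695 and 6.01, 6.48 and 6.66 after vehicle. CM-695 mice 1, 2, 3 and 5 lay above every vehicle mouse, and mice 4 and 6, both at 6.54, lay within the vehicle range. Vehicle mice split into 3 at 6.63 to 6.66 and 3 at 6.01 to 6.33. The difference was 0.28 (SE 0.13, 95% confidence interval 0.01 to 0.55) or 1.22-fold. It had an unadjusted limma p of 0.0416 and an adjusted p of 0.523.

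Ep300, the coactivator and acetyltransferase p300, went the other way in most mice. It measured 7.53, 7.58 and 7.82 after CM-695 and 7.63, 7.78 and 8.00 after vehicle, with 5 of 6 treated mice below every vehicle mouse and CM-695 mouse 2 among the vehicle values. The difference was -0.17 (SE 0.089, 95% confidence interval -0.37 to 0.02, limma adjusted p = 0.585). Its close relative Crebbp measured 9.03, 9.09 and 9.34 after CM-695 and 9.01, 9.11 and 9.31 after vehicle, a difference of -0.01 (SE 0.090). The difference between Ep300 and Crebbp was not tested.

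The other 10 writers had differences between -0.13 and 0.17. Kat2a, the GCN5 subunit of SAGA, differed by 0.13 (SE 0.091) with 3 of 6 treated mice above the vehicle range, and its paralogue Kat2b by -0.11 (SE 0.091) with 3 of 6 below it. Kat8, which acetylates histone H4, differed by 0.17 (SE 0.14). Kat5, the TIP60 enzyme, differed by 0.00 (SE 0.098), Kat6a by -0.06 (SE 0.083) and Kat6b by -0.06 (SE 0.12). Hat1, which acetylates newly made histone H4, differed by 0.00 (SE 0.11). Its dimmer second probe set differed by 0.21 (SE 0.12). The steroid receptor coactivator genes Ncoa1, Ncoa2 and Ncoa3 differed by -0.01 (SE 0.11), 0.06 (SE 0.087) and -0.13 (SE 0.17).

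Scaffolds and readers had the lowest class medians of the within-group SD, at 0.13 each. Rcor1, the CoREST scaffold that joins HDAC1 to the demethylase LSD1, measured 6.94, 7.06 and 7.44 after CM-695 and 7.07, 7.14 and 7.48 after vehicle. Of the treated mice, 3 of 6 lay below every vehicle mouse, and the difference was -0.09 (SE 0.11, limma adjusted p = 0.830). Sin3a and Sin3b, alternative scaffolds of the SIN3 complex, differed by -0.01 (SE 0.093) and 0.02 (SE 0.084). Brd2, a reader of acetylated histones that also belongs to the targets of BET inhibitors, measured 6.78, 7.02 and 7.15 after CM-695 and 6.84, 7.09 and 7.32 after vehicle, a difference of -0.11 (SE 0.10, adjusted p = 0.780). Brd3 differed by 0.04 (SE 0.083).

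The circadian activators CLOCK and BMAL1 bind the E-box CACGTG as a pair, and Clock is listed among the acetyltransferases here, so the promoters of the members were searched for these letters. The search covered RefSeq promoter windows of 300 bases (GRCm38.p6) of 31 of the 37 genes. It did not cover Hdac1, Hdac3, Hdac10, Kat6a, Ncoa2 and Ncoa3. The motif reads the same on both strands. It was found in 4 of 46 member windows, or 8.70%, and in 7.15% of all 32851 windows. These shares were not compared by a test, and their windows were not selected alike. The member windows were filtered by chromosome, and the windows of all genes were not. The whole windows of Hdac5, the member with the largest difference among the 4, and of Sirt1, which holds the motif at 2 places, are shown with the motif in capitals, and for Hat1 and Kat5 only the bases around it.
Hdac5, chr11:102230123-102230422, minus strand: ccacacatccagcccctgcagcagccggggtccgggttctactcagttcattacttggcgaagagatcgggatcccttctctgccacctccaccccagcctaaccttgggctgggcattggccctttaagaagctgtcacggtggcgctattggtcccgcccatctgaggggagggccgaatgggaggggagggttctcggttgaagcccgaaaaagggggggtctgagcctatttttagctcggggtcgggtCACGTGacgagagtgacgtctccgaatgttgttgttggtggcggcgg
Sirt1, chr10:63338986-63339285, minus strand: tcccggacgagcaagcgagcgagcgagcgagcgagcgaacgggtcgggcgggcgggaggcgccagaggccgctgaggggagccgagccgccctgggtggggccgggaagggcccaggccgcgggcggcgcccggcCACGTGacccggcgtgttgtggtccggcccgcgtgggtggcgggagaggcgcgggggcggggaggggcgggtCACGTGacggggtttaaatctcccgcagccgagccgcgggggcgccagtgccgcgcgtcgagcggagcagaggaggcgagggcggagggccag
Hat1, within chr2:71389010-71389309, plus strand: tgagggcatcctCACGTGcggtggctaggc
Kat5, within chr19:5610045-5610344, minus strand: cccggtgggcgtCACGTGacagactcggcg

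Counting the annotated start as the first base, the motif begins at base 4 in Hdac5. It begins 115 and 43 bases before the start in Sirt1, 181 before it in Hat1 and 186 before it in Kat5. The differences of these 4 genes were 0.24 (SE 0.12) for Hdac5, -0.05 (SE 0.12) for Sirt1, 0.00 (SE 0.11) for Hat1 and 0.00 (SE 0.098) for Kat5, and none passed the threshold. A match of these letters is a description of the window and not a binding site.

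The relation of the members to the smooth muscle markers of each sample was examined after the values had been seen. A slope on the mean of 10 smooth muscle markers (Acta2, Myh11, Tagln and others, none of them a member) was fitted with limma beside the treatment group, over all probe sets. It passed an adjusted p of 0.05 in 5 of 36 members, or 13.9%, against 9.14% of all genes, with 3 positive slopes (4.59% of genes) and 2 negative ones (4.55% of genes). Without CM-695 mouse 2 it passed in 0 of 36 members, against 1.97% of all genes. No test set the members apart from other genes here, and the slopes are given as a description.

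The positive slopes belonged to Hdac9, Ncoa3 and Hdac5. Hdac9 rose by 0.53 log2 per log2 unit of the marker mean (SE 0.091, adjusted p = 0.0042). It measured 5.09, 5.46 and 6.20 after CM-695 and 5.31, 5.50 and 6.03 after vehicle, and the highest mouse of all, CM-695 mouse 2, was also the highest in smooth muscle markers. Ncoa3, a coactivator of nuclear receptors, measured 7.61, 7.84 and 8.48 after CM-695 and 7.66, 8.03 and 8.43 after vehicle. It had a slope of 0.48 (SE 0.074, adjusted p = 0.00229), and Hdac5 one of 0.30 (SE 0.070, adjusted p = 0.0238). The other class IIa genes had slopes of 0.34 (SE 0.096, adjusted p = 0.0607) for Hdac7 and 0.19 (SE 0.074, adjusted p = 0.192) for Hdac4.

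The negative slopes belonged to Sirt3 and Kat8. Sirt3 had a slope of -0.50 (SE 0.090, adjusted p = 0.0055) and Kat8 one of -0.36 (SE 0.080, adjusted p = 0.0188). Sirt3 measured 5.97, 6.85 and 6.98 after CM-695 and 6.15, 6.52 and 6.92 after vehicle, lowest in the mouse with the most smooth muscle signal. Kat8 measured 6.55, 7.06 and 7.14 after CM-695 and 6.47, 6.80 and 7.13 after vehicle, again with CM-695 mouse 2 the lowest treated mouse. Sirt5, also mitochondrial, had a slope of -0.31 (SE 0.10, adjusted p = 0.102). Hdac6 had a slope of -0.18 (SE 0.10, adjusted p = 0.427) and Atat1 one of -0.23 (SE 0.096, adjusted p = 0.239). For Atat1 it was -0.12 (SE 0.11) among CM-695 mice alone and -0.51 (SE 0.16) among vehicle mice alone.

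**Figure D3:**
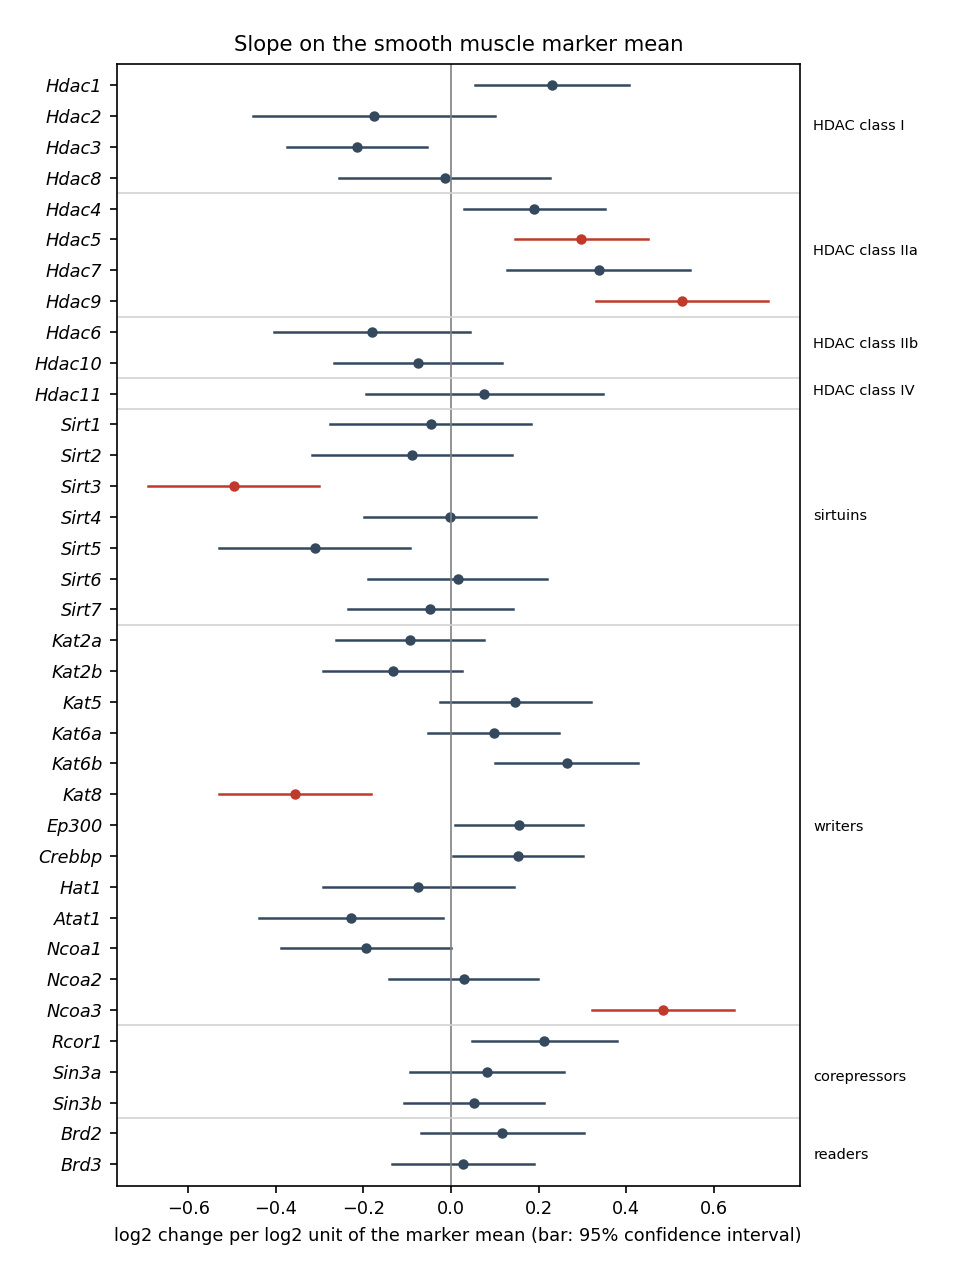
Slope of each measured member on the smooth muscle marker mean, in log2 per log2 unit (x axis), by class, with points for the estimate and bars for limma's 95% confidence interval. The 5 members past the adjusted threshold are red, with Hdac5, Hdac9 and Ncoa3 right of 0 and Sirt3 and Kat8 left of it.

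These slopes had the same sign inside each group. They were picked by a fit to both groups together, which favours this agreement, so it is no separate check. Of all 36 members, 28 had slopes of the same sign in both groups. The share of all genes that did so is not given, so this count does not set the members apart. Hdac9 had a slope of 0.51 (SE 0.099) among CM-695 mice alone and 0.57 (SE 0.21) among vehicle mice alone. The slope of Ncoa3 was 0.45 (SE 0.086) and 0.58 (SE 0.17), and that of Hdac5 0.33 (SE 0.094) and 0.21 (SE 0.15), first among CM-695 and then among vehicle mice. Sirt3 had -0.50 (SE 0.10) after CM-695 and -0.48 (SE 0.20) after vehicle, and Kat8 -0.31 (SE 0.095) after CM-695 and -0.47 (SE 0.175) after vehicle. With 6 mice, no member passed within either group alone, against 1.24% of all genes in CM-695 mice and 0 genes in vehicle mice. At an unadjusted limma p under 0.05 there were 7 members (19.4%) in each group, against 15.6% of all genes in CM-695 mice and 11.2% in vehicle mice. A test of the difference in slope between the groups passed in 0 of 36 members, with 0 at an unadjusted p under 0.05, against 3.51% of all genes.

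These calls depended on CM-695 mouse 2. It had the highest smooth muscle mean (10.40) and the lowest adipocyte mean (9.57) of all 12 mice. Without it, 10 members (27.8%) had an unadjusted limma p under 0.05, against 15.2% of all genes. The slopes were then 0.50 for Hdac9, 0.51 for Ncoa3, 0.20 for Hdac5, -0.40 for Sirt3 and -0.40 for Kat8. When CM-695 mouse 3 was left out, which had the lowest mean (8.46), 4 passed and Hdac5 did not (slope 0.30, adjusted p = 0.0522). The vehicle mice fell into 3 between 8.94 and 9.08 and 3 between 9.78 and 9.83 on the marker scale.

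**Figure D4:**
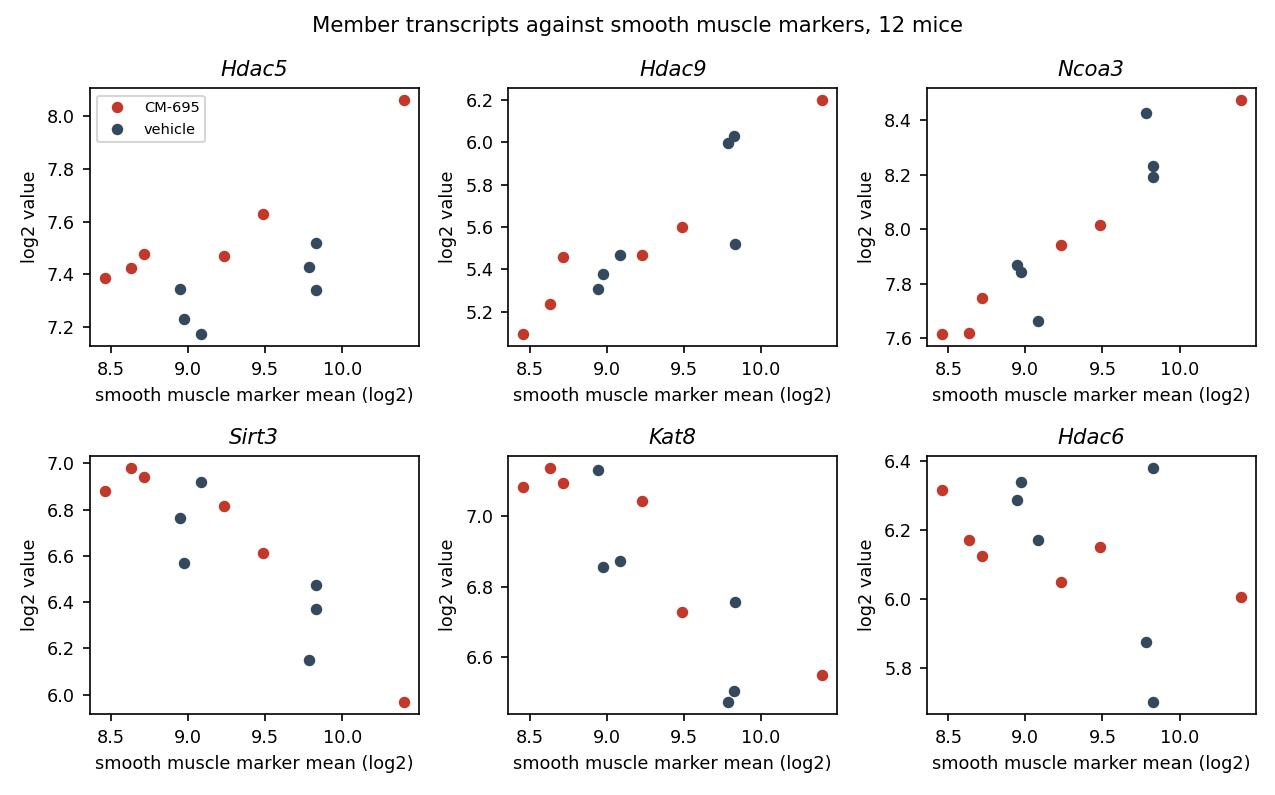
Log2 value of 6 members (y axis) against the smooth muscle marker mean (x axis, log2) in the 12 mice, CM-695 in red and vehicle in dark blue. Hdac5, Hdac9 and Ncoa3 climb and Sirt3 and Kat8 descend from left to right in both colours, with CM-695 mouse 2 at the far right, and Hdac6 is scattered.

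With the smooth muscle mean held as a covariate, the treatment difference of Hdac5 was 0.31 (SE 0.079, 95% confidence interval 0.14 to 0.48), with an unadjusted limma p of 0.00185 and an adjusted p of 0.158. With the cardiac covariate instead, the difference of Hdac5 was 0.20 (SE 0.17, 95% confidence interval -0.16 to 0.57). The smooth muscle slope of Hdac5 was 0.30 with all mice and 0.20 without CM-695 mouse 2. Its difference with the smooth muscle covariate and without that mouse is not given. With the smooth muscle covariate, the difference of Atat1 was 0.23 (SE 0.11) and that of Hdac6 -0.03 (SE 0.12). In this fit too, 0 of 36 members passed the threshold and 1, Hdac5, had an unadjusted p under 0.05. The share of all genes at that p in this fit is not given.

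Other genes of the acetylation pathway were taken from 9 lists with 144 genes, of which 136 were measured. Of these, 0 passed over all probe sets in either direction, and 16 (11.8%) had an unadjusted limma p under 0.05, 9 higher and 7 lower, against 9.1% of all genes. Their median difference was 0.00 log2. Complexes that carry HDAC1, HDAC2 and HDAC3 had medians of -0.01 for NCoR/SMRT (5 measured), -0.02 for CoREST/LSD1 (8 measured), -0.07 for SIN3 (14 measured) and 0.06 for NuRD (10 measured). Tbl1xr1, a transducin-like subunit of the NCoR complex, measured 6.77, 7.16 and 7.45 after CM-695 and 7.28, 7.55 and 7.59 after vehicle, with 5 of 6 treated mice below every vehicle mouse (difference -0.39, SE 0.12, adjusted p = 0.325). Trim24, a bromodomain protein, differed by -0.35 (SE 0.10, adjusted p = 0.284).

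Of the differences given for genes of these lists, the largest were those of Acss2, Sik1, Acly and Nampt. The lists of NAD supply and of class IIa partners had medians of 0.01 and 0.00 log2. Acss2, which makes acetyl-CoA from acetate in the cytosol and nucleus, measured 9.43, 10.01 and 11.00 after CM-695 and 7.21, 8.80 and 9.56 after vehicle, with 5 of 6 treated mice above every vehicle mouse. Its difference was 1.42 (SE 0.375, limma adjusted p = 0.215). Acly, which makes acetyl-CoA from citrate, differed by 0.92 (SE 0.37, adjusted p = 0.469), and by 0.55 without vehicle mouse 2, the lowest vehicle mouse at 9.21 against a vehicle median of 11.42. Of 11 acetyl-CoA genes 10 were above 0, with a median of 0.15, against 55.3% of all genes above 0. With the smooth muscle covariate 7 of 11 were above 0 (median 0.05), and with the cardiac covariate 10 of 11 (median 0.44). Nampt, the rate-limiting enzyme of NAD salvage, measured 7.84, 8.99 and 9.19 after CM-695 and 8.96, 9.47 and 9.72 after vehicle (difference -0.60, SE 0.22, adjusted p = 0.408). Without CM-695 mouse 2 the difference of Nampt was -0.41.

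Sik1, a kinase that phosphorylates class IIa deacetylases, measured 6.39, 7.16 and 7.98 after CM-695 and 7.45, 8.25 and 8.49 after vehicle, with 4 of 6 treated mice below the vehicle range. Its difference was -0.96 (SE 0.25, limma adjusted p = 0.212). Clock, counted here for its reported acetyltransferase activity, was the single gene of the 136 whose groups did not overlap, with values from 9.23 to 9.51 after CM-695 and from 8.73 to 9.14 after vehicle (difference 0.50, SE 0.097, adjusted p = 0.0739). That is 0.735% of the 136, against 1.08% of all genes. None of these genes passed the threshold.

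**Figure D5:**
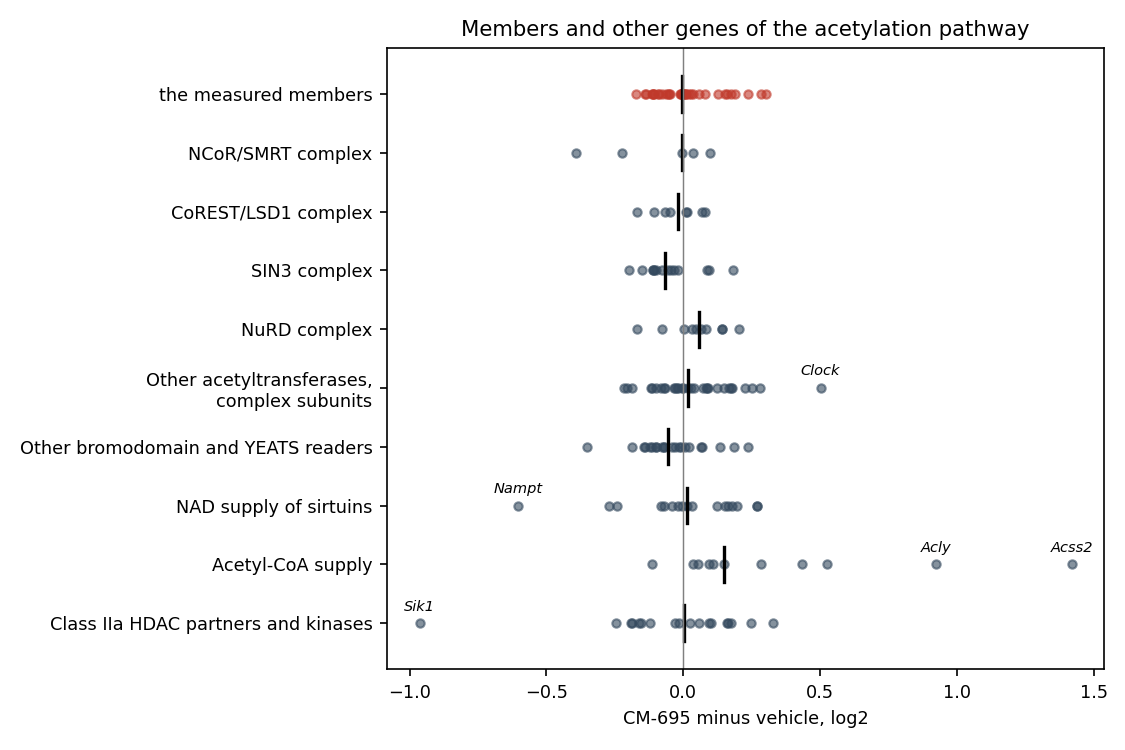
Differences between CM-695 and vehicle mice on the log2 scale (x axis) for the 36 measured members (red, top row) and for 136 other genes in 9 lists (dark blue), 1 point per gene, with a black tick at each median. The members lie between -0.17 and 0.30, and the 5 named points, Acss2, Acly, Clock, Nampt and Sik1, lie outside that range.

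Smooth muscle slopes passed the threshold in 13.2% of the 136 genes, against 9.14% of all genes. Of 18 measured partners and kinases of class IIa enzymes, 5 had positive slopes past the threshold (Camk2g, Mef2c, Srf, Ywhaz and Mef2a) and 2 negative ones (Sik2 and Prkd1), or 38.9% in all. Camk2g, a calcium-dependent kinase, had the smallest p among them, with a slope of 0.61 (SE 0.065, limma adjusted p = 0.000248), and Mef2c, a class IIa binding partner, had the steepest slope at 0.66 (SE 0.12, adjusted p = 0.00473). Of 11 acetyl-CoA genes, 6 (54.5%) had negative slopes past the threshold, among them Pdha1, a pyruvate dehydrogenase subunit, at -0.75 (SE 0.083, adjusted p = 0.000293). Without CM-695 mouse 2 the counts were 1 positive and 0 negative among the class IIa partners and 2 negative among the acetyl-CoA genes, against 1.97% of all genes.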

How the data were processed

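RNA of 12 aortas was hybridised to Affymetrix arrays, 1 per mouse. The authors deposited log2 values made with RMA, per the submitters' processing notes, a method of background correction, quantile normalization and probe summary. The labels name no software version. The values carry no detection calls, and the number of arrays limits the precision. In the platform annotation 23521 probe sets carried 1 gene symbol, 1814 carried several and 16010 carried none.

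All probe sets were fitted in R 4.3.3 by limma 3.58.1 (CM-695 minus vehicle, moderated two-sided test), and an adjusted p (Benjamini-Hochberg) under 0.05 was called. Smooth muscle slopes came from the same model with the marker mean added. The procedure was tested on simulated data with independent noise and planted effects larger than any member difference or slope. That test does not cover detection at the sizes seen here. Members and lists were chosen with earlier results of these data known. Values in full were given for members with an unadjusted p under 0.05, for Hdac6 and for the smallest p of each class; Hdac7, Hdac9, Sirt3, Ep300, Crebbp, Kat8 and Ncoa3 were added after their values were seen. From the lists, up to 2 genes with the smallest p were named, and slope genes were named after their values were seen. Alternatives were a replicate block, a filter on dim probe sets, other normalizations, weights, eBayes with trend and robust, marker covariates, other probe set and adjustment rules, and leaving out each mouse.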

Additional observations from a re-analysis of the deposited data

Results flagged for a closer look

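Within groups of 6 mice, 7 of 72 sets of member values held a mouse whose gap to its nearest neighbour was large against the range of its group. In independent sets chance gives such a gap in about 1 in 20. The 72 sets come from the same 12 mice and are not independent, so neither the count nor its split by group can be judged by that rate. All 7 were among CM-695 mice. The share of such gaps over all genes is not given, so the count does not set the members apart from other genes. CM-695 mouse 2 accounted for 4 of them, being the highest treated mouse for Hdac5 at 8.06 (next 7.63), for Hdac7 at 6.85 (next 6.38) and for Ep300 at 7.82 (next 7.62), and the lowest for Sirt3 at 5.97 (next 6.61). The same mouse had the highest smooth muscle and the lowest adipocyte marker mean, whose part in these values was not tested. The other 3 were Hdac8 in CM-695 mouse 5, highest at 6.11 (next 5.78), Hdac10 in CM-695 mouse 4, lowest at 5.67 (next 5.96), and Kat5 in CM-695 mouse 3, lowest at 6.07 (next 6.30).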

How the results depend on the processing

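No member passed the adjusted threshold in any of 22 alternatives. Intervals within 1.5-fold numbered 35 of 36, against 29 with the cardiac covariate and 32 to 36 on leaving out 1 mouse, counts added after seeing the data. Against 64 probe sets past the threshold, 15 passed with the replicate number as a block, 116 without dim probe sets, 13 with the cardiac covariate, 117 with the smooth muscle covariate and 37 when adjusted over 1 probe set a gene. Leaving out 1 mouse gave 22 to 98. The deviations of same-numbered mice correlated between -0.10 and 0.10. This gave no sign that the numbers pair the mice, but so few mice cannot exclude it. Members at an unadjusted p under 0.05 numbered 1, against 2 with repeated quantile normalization, 3 with array weights and 3 with the cardiac covariate. Leaving out 1 mouse gave 0 to 3 such members. At this limma p 9.1% of all genes passed in the main fit. Shares of all genes in the alternative fits are not given, for these counts or for the intervals. Members with a smooth muscle slope past the threshold numbered 5, against 0 without the 2 mice farthest from the median, 0 in CM-695 mice alone, 0 in vehicle mice alone and 0 to 6 on leaving out 1 mouse.

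The sign of the difference held under all 22 alternatives in 20 members and turned under at least 1 in 16, whose reported size was at most 0.11. It turned with quantile normalization for Sirt4 (0.0061), Crebbp (0.014), Ncoa1 (0.0093) and Sin3a (0.0074), with median centring for Sirt2 (-0.00091), Kat5 (-0.0078) and Hat1 (-0.0057), and with array weights for Sirt2 (-0.0090) and Ncoa1 (0.013). With the cardiac covariate it turned for Hdac7 (-0.095), Sirt1 (0.096), Sirt4 (0.16), Kat5 (-0.11), Hat1 (-0.046), Ncoa1 (0.046), Sin3a (0.023) and Brd3 (-0.047). With the smooth muscle covariate it turned for Hdac2 (-0.017), Hdac6 (-0.035), Hdac9 (0.026), Sirt2 (-0.014), Kat6b (0.0034), Crebbp (0.034), Hat1 (-0.016) and Sin3a (0.011). Leaving out 1 mouse gave -0.035 to 0.066 for Sirt2, -0.057 to 0.027 for Sirt7, -0.053 to 0.069 for Hat1, -0.049 to 0.053 for Sirt4, -0.046 to 0.027 for Crebbp, -0.055 to 0.061 for Ncoa1, -0.074 to 0.062 for Hdac6, -0.059 to 0.031 for Sin3a, -0.11 to 0.022 for Sirt1, -0.053 to 0.049 for Kat5, -0.067 to 0.11 for Hdac2, -0.0069 to 0.17 for Hdac7 and -0.011 to 0.056 for Sin3b. The cause was not tested. With 6 mice a group, differences of the size of the standard errors were not detectable.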
